A study of Mus musculus with 8 samples.

Results

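*Hadha*, *Hadhb*, *Etfdh*, *Acot1*, *Elovl5*, *Plin2*, *Slc27a1* and *Gk* are 8 genes of fatty acid oxidation and lipid storage, out of 21887 protein-coding genes in the reference. They were chosen by the positions of H3K27ac peaks, since at least 1 of 4 lists held a peak that overlapped the gene or came within 10 kb, so the presence of such a peak is a description here and was not tested. H3K27ac, an acetylated histone that marks promoters and enhancers in use, was profiled by Cut & Tag, in which an antibody guides a transposase that cuts and tags the DNA beside the marked nucleosome, in differentiated mouse brown adipocytes (BAC). EBF2, a transcription factor of the brown fat lineage, was profiled in the same way. The cells came from the interscapular depot of *Cars2* flox/flox mice at birth, were made immortal by SV40 large T antigen, and were selected with hygromycin after infection with a retrovirus that carried no insert (Vec, labelled BAC-V and WT) or Cre recombinase (Cre, labelled BAC-Cre and CarS2-KO). Both groups therefore come from floxed cells and carry the large T antigen. In Cre the gene *Cars2*, which encodes a mitochondrial cysteinyl-tRNA synthetase with cysteine persulfide synthase activity, is deleted before differentiation. The labels call the cells preadipocytes, while the protocols describe differentiation with IBMX, indomethacin, dexamethasone, insulin and T3, followed by insulin and T3. Each antibody was used on 2 libraries of each cell type, which makes 8, and the study's general statements on its cell experiments do not say whether the 2 Cut & Tag libraries came from separate cultures.

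Brown adipocytes burn fatty acids to make heat. Triglyceride in lipid droplets is broken down, the fatty acids are activated to acyl-CoA and carried into mitochondria, and β-oxidation removes acetyl-CoA while passing electrons to the respiratory chain. HADHA and HADHB are the subunits of the mitochondrial trifunctional protein, which carries out the last steps of the β-oxidation of long chains. ETFDH passes the electrons of acyl-CoA dehydrogenases to ubiquinone. ACOT1 is a cytosolic thioesterase that splits acyl-CoA into fatty acid and CoA, and ELOVL5 elongates polyunsaturated fatty acids. PLIN2 coats lipid droplets, SLC27A1 (FATP1) takes up long-chain fatty acids, and GK phosphorylates glycerol so that it can be used again for triglyceride. Many genes of this kind are targets of PPAR nuclear receptors in fat.

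In 5 of the 8 genes, *Hadha*, *Hadhb*, *Etfdh*, *Acot1* and *Gk*, a listed H3K27ac peak lay over the transcription start. Over all protein-coding genes with a promoter window in the reference (17492), 6.85% had an H3K27ac peak over a start in at least 1 list. Of the 1601 of these that had any H3K27ac peak within 10 kb, as all 8 genes do by choice, the share was 74.8%. Both shares count peaks over 10 kb, which cover every start inside them and numbered 337 to 374 per H3K27ac list. No peak at the 8 genes was wider than 9425 bp, so the shares are not like for like and nothing is read from them. The RefSeq promoter windows of these 5 genes (GRCm38.p6, from 250 bases before to 50 after the start, written 5′ to 3′ on the strand of the gene) are shown because these peaks lie over them, in whole or, for *Acot1* in Cre replicate 2, in part. Capitals mark matches to the words searched for on either strand, which were TCCC and GGGA with any 2 bases between them (EBF), AGGTCA repeated with any 1 base between the copies (PPAR/RXR), TCAAGGTCA (ERR), GCGCA joined to TGCGC (NRF1), GGGCGG (GC box), CCAAT, TGACGTCA (CRE), CACGTG (E-box) and TATAAA. No matches overlapped each other in these genes. The windows are on the minus strand at chr5:30154931-30155230 for *Hadha*, chr3:79628718-79629017 for *Etfdh* and chrX:85776770-85777069 for *Gk*, and on the plus strand at chr5:30155003-30155302 for *Hadhb* and chr12:84009252-84009551 for *Acot1*.
Hadha: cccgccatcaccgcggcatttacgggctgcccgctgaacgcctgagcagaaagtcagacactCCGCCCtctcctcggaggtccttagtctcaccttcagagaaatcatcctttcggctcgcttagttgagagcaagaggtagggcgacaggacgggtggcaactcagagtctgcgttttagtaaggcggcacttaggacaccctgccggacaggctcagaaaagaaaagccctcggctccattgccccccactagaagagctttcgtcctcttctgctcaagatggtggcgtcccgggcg
Hadhb: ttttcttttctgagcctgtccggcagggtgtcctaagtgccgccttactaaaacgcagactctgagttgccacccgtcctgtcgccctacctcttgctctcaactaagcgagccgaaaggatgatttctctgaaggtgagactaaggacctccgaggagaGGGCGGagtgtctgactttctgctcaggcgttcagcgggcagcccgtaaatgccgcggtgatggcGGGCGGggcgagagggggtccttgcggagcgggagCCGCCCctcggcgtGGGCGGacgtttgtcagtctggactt
Etfdh: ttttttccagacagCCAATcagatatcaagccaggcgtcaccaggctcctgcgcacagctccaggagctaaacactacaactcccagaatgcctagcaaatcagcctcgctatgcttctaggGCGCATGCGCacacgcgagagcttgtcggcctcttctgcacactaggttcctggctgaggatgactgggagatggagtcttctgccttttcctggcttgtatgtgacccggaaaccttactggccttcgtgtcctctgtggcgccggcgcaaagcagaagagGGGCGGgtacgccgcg
Acot1: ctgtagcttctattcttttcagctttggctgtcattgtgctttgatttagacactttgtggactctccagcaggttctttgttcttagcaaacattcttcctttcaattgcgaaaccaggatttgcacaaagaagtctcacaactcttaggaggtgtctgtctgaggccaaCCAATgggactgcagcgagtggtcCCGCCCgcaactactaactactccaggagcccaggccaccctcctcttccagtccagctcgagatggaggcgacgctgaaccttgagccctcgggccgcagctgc
Gk: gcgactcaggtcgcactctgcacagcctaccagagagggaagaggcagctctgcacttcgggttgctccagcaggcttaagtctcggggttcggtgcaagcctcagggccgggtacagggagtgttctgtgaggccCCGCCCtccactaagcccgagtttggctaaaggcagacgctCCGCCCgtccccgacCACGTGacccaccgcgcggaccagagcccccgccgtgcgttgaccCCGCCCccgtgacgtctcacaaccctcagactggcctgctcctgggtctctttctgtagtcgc

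*Hadha* and *Hadhb* are transcribed away from each other, and their windows share 228 bases that are the reverse complement of each other. The GC box at position -188 of *Hadha* (first base of the match, with the start as 0) and the one at -90 of *Hadhb* are the same bases, 30155163 to 30155168. *Hadhb* holds 3 further GC boxes, at -25, 10 and 24. The *Etfdh* window holds the word of NRF1, a factor of nuclear genes for mitochondrial proteins, at -128, besides a CCAAT word at -236 and a GC box at 34. This word was found in 1.33% of the 21263 windows of protein-coding genes. *Acot1* holds a CCAAT word at -79 and a GC box at -55, and *Gk* holds GC boxes at -114, -73 and -13 and an E-box at -58. In all, 7 of the 8 genes hold a GC box in a window, 5 a CCAAT word, 4 an E-box and 1, *Elovl5*, a CRE. Over all windows a GC box was in 46.2%, CCAAT in 38.2%, an E-box in 7.84% and a CRE in 2.23%. These are shares of windows and not of genes, and *Slc27a1*, 1 of the 4 genes with an E-box, has 3 windows. The EBF, PPAR/RXR, ERR and TATAAA words were in none of the windows of the 8 genes, and in 0.959%, 0.0470%, 0.334% and 12.6% of all windows. GC content was between 52.0% (*Acot1*) and 65.7% (*Gk* and the first window of *Slc27a1*), against a median of 56.3% over all windows.

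The 4 H3K27ac lists differ in ways that touch these genes, and their read depth is unknown. Vec replicate 1 held 836 peaks, Vec replicate 2 held 646, Cre replicate 1 held 673 and Cre replicate 2 held 902. Peaks of 2 kb or less numbered 270 and 98 in Vec and 149 and 384 in Cre. Of these short peaks, 152 and 25 in Vec and 47 and 200 in Cre overlapped a promoter window. There were 497 protein-coding genes that had a nearby peak (10 kb or less) in exactly 1 H3K27ac list. Of these, Cre replicate 2 held 274 and Vec replicate 1 held 168, while Cre replicate 1 held 36 and Vec replicate 2 held 19. The background coverage implied by the authors' folds and p-values was 18.8 in Vec replicate 1 and 9.40 to 9.91 in the other 3. In each cell type, then, 1 of the 2 libraries held most of the short peaks and single-list genes, and it was replicate 1 in Vec and replicate 2 in Cre. One EBF2 list, that of Cre replicate 1, has Cars2AKO in its peak names, which is what the study calls a mouse line, and its sample label was followed.

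**Figure D1:**
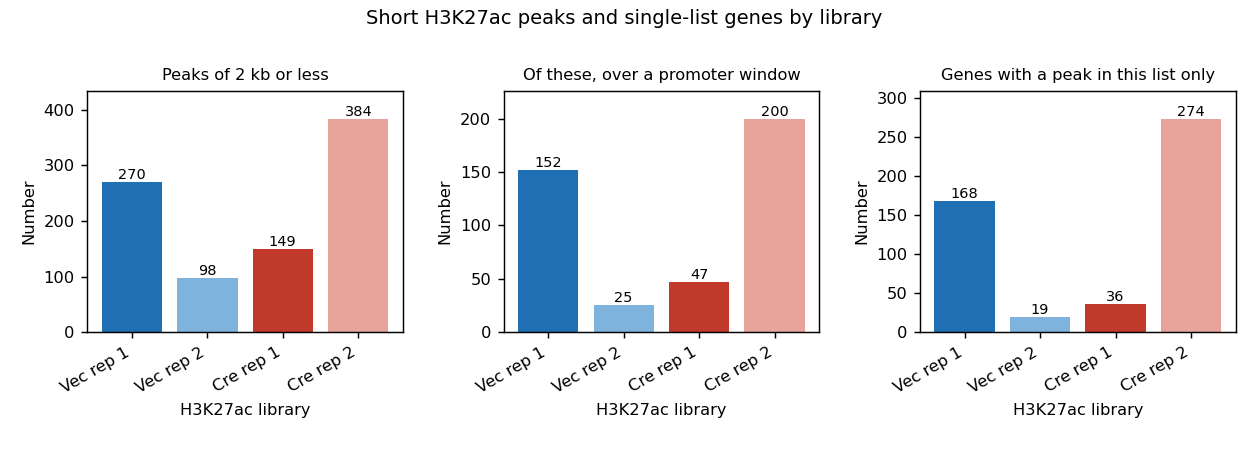
The bars give, for each of the 4 H3K27ac libraries, the number of peaks of 2 kb or less, how many of these overlap a promoter window, and the number of protein-coding genes that had a peak at 10 kb or less in that list and no other. Vec replicate 1 and Cre replicate 2 hold the higher counts in each panel, and there is no error bar because each bar is 1 library.

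The peaks at the 8 genes were spread unevenly over the libraries of both cell types. Vec replicate 1 held peaks at 4 of the 8 genes (*Acot1*, *Elovl5*, *Plin2* and *Gk*), where 6.93% of all protein-coding genes had a peak within 10 kb in that list. Vec replicate 2 held peaks at 2 of them (*Acot1* and *Plin2*), with 5.60% over all genes. Cre replicate 1 held a peak at 1 gene (*Slc27a1*), with 5.80% over all genes, and Cre replicate 2 at 5 (*Hadha*, *Hadhb*, *Etfdh*, *Acot1* and *Plin2*), with 7.20%. Since the genes were chosen for these peaks, nothing is read from the counts against these shares. The 4 EBF2 lists held no peak at any of the 8 genes, and over all genes the share was 5.13% and 3.85% in Vec and 5.17% and 4.95% in Cre. Those shares also count EBF2 peaks over 10 kb, which numbered 257 to 321 per list.
No gene of the 8 had a peak in the 2 Vec lists only, in the 2 Cre lists only, or in all 4 H3K27ac lists. Over all protein-coding genes these shares were 0.178%, 0.101% and 4.98%. These counts of 0 rested on single libraries. Without Vec replicate 2, *Elovl5* and *Gk* were in Vec only, as were 0.946% of all genes, and without Cre replicate 2, *Acot1* and *Plin2* were, with 0.279% of all genes. Without Cre replicate 1, *Hadha*, *Hadhb* and *Etfdh* were in Cre only (1.35% of all genes) and *Acot1* and *Plin2* in every remaining list (5.08%). Without Cre replicate 2, *Slc27a1* was in Cre only (0.265%). *Acot1* and *Plin2* were in exactly 3 of the 4 lists, a pattern of 0.544% of all genes, and both were missing from Cre replicate 1. The other 6 genes were in exactly 1 list, a pattern of 2.27% of all genes. With 2 libraries against 2, an exact permutation test gives no two-sided p-value below 0.33, and lists of peaks past a threshold hold no coverage to test at a gene without a peak, so Vec and Cre were not compared by a test.

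**Figure D2:**
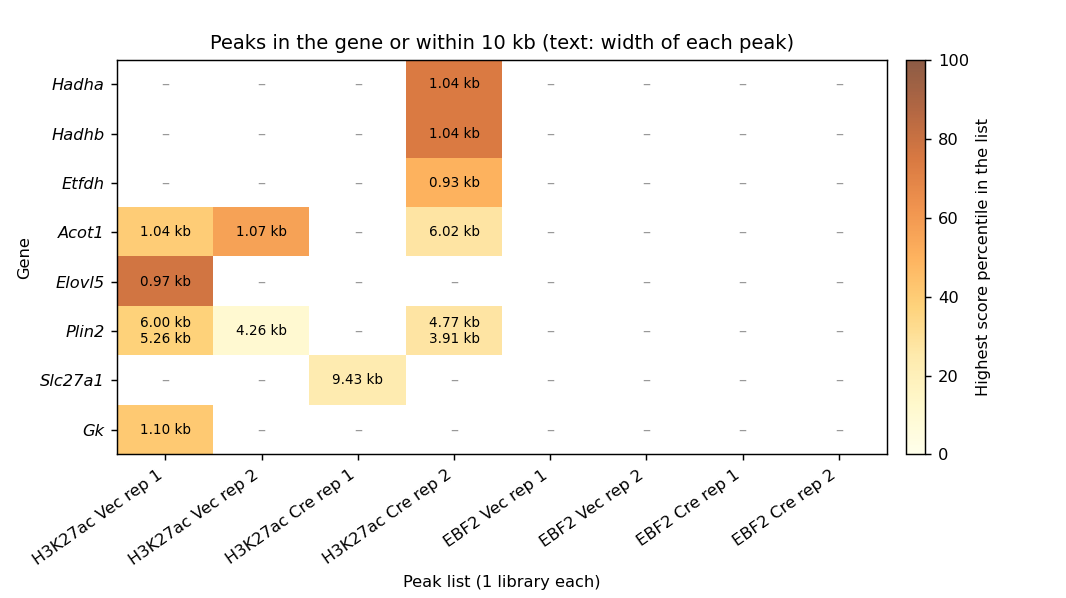
Each row is a gene and each column the peak list of 1 library. A coloured cell marks a peak that overlaps the gene or lies at most 10 kb from it, the text gives the width of each peak in kb, the colour gives the highest score percentile in that list, and a dash marks no listed peak. *Acot1* and *Plin2* are filled in 3 H3K27ac columns, the other 6 genes in 1, and the 4 EBF2 columns are empty.

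The peaks at the 8 genes were 13 in number, with the peak shared by *Hadha* and *Hadhb* counted once. There were 5 in Vec replicate 1, 2 in Vec replicate 2, 1 in Cre replicate 1 and 5 in Cre replicate 2. They fall into a short and a wide kind with no width between 1105 and 3907 bp. The 6 short peaks were 931 to 1105 bp wide, with −log10 q-values of 2.39 to 12. The 7 wide peaks were 3907 to 9425 bp, with −log10 q-values of 1.34 to 2.18, where the smallest values in the H3K27ac lists were 1.04 to 1.10. The authors' fold over background, which in these lists is a mean over the peak, was between 1.47 and 2.28 at all 13 peaks. Short peaks were at *Hadha* and *Hadhb*, *Etfdh*, *Acot1*, *Elovl5* and *Gk*, and wide ones at *Acot1*, *Plin2* and *Slc27a1*.

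Among the genes of β-oxidation, *Hadha* (gene ID 97212) lies on the minus strand of chromosome 5 from 30119423 to 30154980, and *Hadhb* (gene ID 231086) on the plus strand from 30155253 to 30184593. Their starts are 273 bases apart. In Cre replicate 2, 1 peak from 30154620 to 30155655 (1036 bp, fold 1.73, −log10 q-value 6.54, score percentile 74.1 in its list) covered both starts. It ran from -675 to 360 bases relative to the start of *Hadha*, into the first part of both genes. The peak is 1 measurement for the pair, and the 2 genes do not count as independent. The other 3 H3K27ac lists held no peak there. The nearest peak to *Hadha* was 383 kb away in Vec replicate 1, 4.02 Mb in Vec replicate 2 and 4.0 Mb in Cre replicate 1.

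*Etfdh* (gene ID 66841) lies on the minus strand of chromosome 3 from 79603788 to 79628767. In Cre replicate 2 a peak from 79628520 to 79629450 (931 bp, fold 1.70, −log10 q-value 2.90, score percentile 50.1) covered its start, from -683 to 247 bases. The same peak covered the start of *4930579G24Rik*, an uncharacterized gene that is transcribed away from *Etfdh* and starts 312 bases from it. In the other 3 lists the nearest peak to *Etfdh* was 4.05 Mb away (Vec replicate 1), 4.59 Mb (Vec replicate 2) and 9.14 Mb (Cre replicate 1). All 3 genes of β-oxidation thus share their promoter region with a gene on the other strand whose start is within 1 kb. This was so for 8.48% of the 17492 protein-coding genes with a promoter window, and for 10.8% of the 1198 that had an H3K27ac peak over a start in at least 1 list. The pair *Hadha* and *Hadhb* counts for 2 of the 3. *Acot1*, *Elovl5*, *Plin2*, *Slc27a1* and *Gk* had no such partner among the starts of the promoter windows. The annotated range of *5430427O19Rik* begins 149 bases from the start of *Gk*, but no start of a promoter window of that gene lay there.

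*Acot1* (gene ID 26897) lies on the plus strand of chromosome 12 from 84009502 to 84017670, in a cluster with other acyl-CoA thioesterase genes. In Vec replicate 1 a peak ran from 84009252 to 84010294 (1043 bp, fold 1.84, −log10 q-value 2.39). In Vec replicate 2 it ran from 84009227 to 84010301 (1075 bp, fold 2.28, −log10 q-value 2.81). The starts of these peaks were 25 bases apart and their ends 7 bases apart. In Cre replicate 2 the peak began at -107 from the start of the gene and was 6021 bp wide (84009395 to 84015415, fold 1.94, −log10 q-value 1.52), so that it covered most of the gene. In Cre replicate 1 the nearest peak was 1.95 Mb away. At 50% reciprocal overlap the peak in Cre replicate 2 no longer counted as the region shared by the Vec libraries. Of the neighbours, *Acot2*, *Acot4* and *Acot3* had their nearest H3K27ac peak 15.3 kb, 21.8 kb and 36.7 kb away, which in each case was the peak at *Acot1*. Genes of this cluster resemble each other, and how reads that align to several places were treated is not given in the sources used here.

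*Elovl5* (gene ID 68801) lies on the plus strand of chromosome 9 from 77917365 to 77984519. Its peak was in Vec replicate 1, from 77910484 to 77911453 (970 bp, fold 1.59). Its −log10 q-value of 12 and score percentile of 77.3 were the highest among the 13 peaks. It lay 5912 bases upstream of the start, outside the gene, and no protein-coding gene had an end closer to it than *Elovl5*. The nearest peak in Cre replicate 2 was 36.7 kb away, that in Cre replicate 1 191 kb away and that in Vec replicate 2 248 kb away. No listed peak overlapped the start of *Elovl5*.

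Among the genes of uptake and storage, *Plin2* (gene ID 11520) lies on the minus strand of chromosome 4 from 86626910 to 86670217. Its peaks formed a pair of regions inside the annotated gene, far from the start at 86670059. The region nearer to the start was in 3 lists, from 86644731 to 86649993 in Vec replicate 1 (5263 bp, fold 1.78), from 86645869 to 86650126 in Vec replicate 2 (4258 bp, fold 1.88) and from 86645965 to 86649871 in Cre replicate 2 (3907 bp, fold 1.93). These overlapped in 3907 bases and lay 19.9 to 20.2 kb downstream of the start. The other region was in 2 lists, from 86632803 to 86638807 in Vec replicate 1 (6005 bp, fold 1.71) and from 86632799 to 86637569 in Cre replicate 2 (4771 bp, fold 1.90), with starts 4 bases apart. All 5 peaks had −log10 q-values between 1.34 and 2.18. The lists with both regions were again Vec replicate 1 and Cre replicate 2, and in Cre replicate 1 the nearest peak was 2.09 Mb away.

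*Slc27a1* (gene ID 26457) lies on the plus strand of chromosome 8 from 71568728 to 71587307. Its peak was in Cre replicate 1, from 71554310 to 71563734 (9425 bp, fold 1.88, −log10 q-value 1.34). It ended 4994 bases before the gene and 5137 bases before the first of 3 annotated starts. The peak covered the start of *Tmem221* and an end of *Nxnl1*, so that other genes lie nearer to it than *Slc27a1*. The nearest peak in the other 3 lists was 457 to 460 kb away.

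*Gk* (gene ID 14933) lies on the minus strand of chromosome X from 85701937 to 85776819. In Vec replicate 1 a peak from 85776234 to 85777338 (1105 bp, fold 1.47, −log10 q-value 2.55, score percentile 41.2) covered its start, from -519 to 585 bases. The annotated range of *5430427O19Rik* begins 149 bases from the start of *Gk*, and only this end of it was also under the peak. The fold was the lowest of the 13 peaks. In the other 3 lists the nearest peak was 5.58 to 6.06 Mb away.

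**Figure D3:**
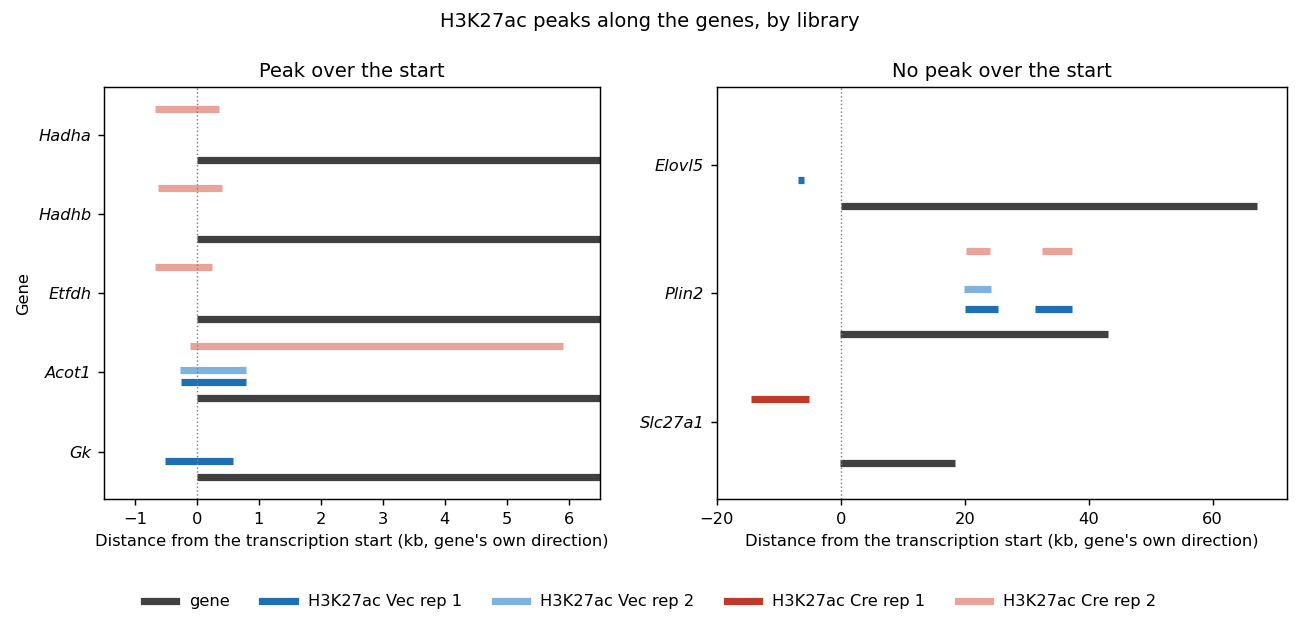
Horizontal bars show the 13 H3K27ac peaks at the 8 genes by distance from the transcription start in kb, in the direction of the gene, coloured by library, above a dark bar for the gene itself. On the left, the peaks of *Hadha*, *Hadhb*, *Etfdh*, *Acot1* and *Gk* lie over the start (gene bars run on past the edge), and on the right, those of *Elovl5* and *Slc27a1* lie upstream and those of *Plin2* 19.9 kb or more downstream.

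The distance from each gene to the nearest EBF2 peak was also measured. It was 1.95 Mb to 1.96 Mb for *Acot1*, 2.09 Mb for *Plin2*, 4.02 Mb to 4.03 Mb for *Hadha* and 4.06 Mb to 4.07 Mb for *Hadhb* over the 4 EBF2 lists. For *Etfdh* it was 9.14 Mb to 9.15 Mb and for *Gk* 5.91 Mb to 9.10 Mb. *Elovl5* had the nearest EBF2 peaks, at 249 kb to 255 kb in all 4 lists. These peaks were 27.5 kb to 45.2 kb wide, and H3K27ac Vec replicate 2 held a peak over the same region. The EBF2 peaks nearest to *Etfdh* were 105 kb to 122 kb wide, and those nearest to *Acot1* and *Plin2* 42.0 kb to 55.8 kb. H3K27ac Cre replicate 1 held peaks over these regions too. Narrower EBF2 peaks, down to 1.71 kb, were nearest in some lists to *Hadha*, *Hadhb*, *Slc27a1* and *Gk*. A distance here is thus often to a wide region and not to a narrow EBF2 site. For *Slc27a1* the distance was 456 kb in Vec replicate 1 and 472 kb in Cre replicate 2, and 16.1 Mb in Vec replicate 2 and Cre replicate 1. No EBF2 difference between the cell types was thus detectable at the 8 genes from the lists, which hold only what passed the threshold of the caller. The H3K27ac and EBF2 lists had different layouts, called broad and narrow whatever the width of a peak, so their counts are not on the same footing.

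**Figure D4:**
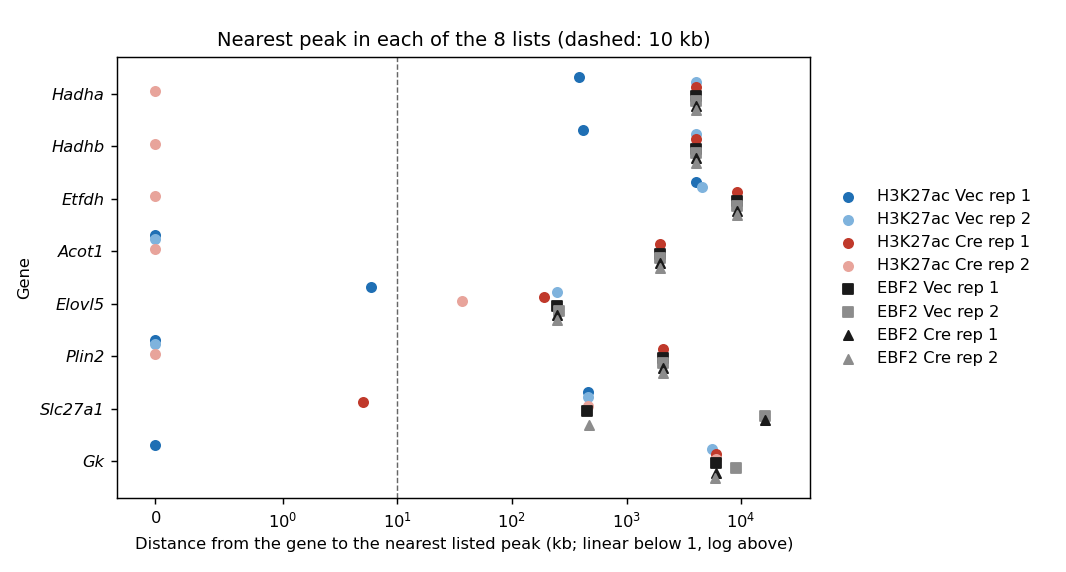
The points give the distance from each gene to the nearest listed peak in kb, on an axis that is linear below 1 kb and logarithmic above it, for each of the 8 lists. Points left of the dashed line at 10 kb are circles, the H3K27ac lists, and the squares and triangles of the EBF2 lists all lie at 249 kb or more.

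The 8 genes were then set beside the rest of their pathways, in 8 lipid gene lists with 163 genes in all, written from general knowledge. Of the 163, 12 had an H3K27ac peak within 10 kb in at least 1 list, or 7.36%, where the share of all protein-coding genes was 8.65%. The 8 genes, which were chosen for such peaks, are 8 of the 12, and only 4 were other lipid genes. The share of 7.36% therefore holds the choice of the 8, and nothing is read from it or from the counts per pathway below. The number out of 163 was 6 in Vec replicate 1, 2 in Vec replicate 2, 2 in Cre replicate 1 and 8 in Cre replicate 2. For EBF2, 0 of the 163 had a peak in any list, where the share of all genes was 5.74%. That share counts EBF2 peaks over 10 kb, which numbered 257 to 321 per list, while 3 to 12 of the short ones overlapped a promoter window. How much of the share comes from wide peaks was not counted, so nothing is read from the 0. By list, 4 of 27 genes of mitochondrial β-oxidation had an H3K27ac peak, 2 of 15 thioesterases, 2 of 21 genes of elongation and desaturation, 1 of 22 of uptake and activation, 1 of 22 of glycerol handling and triglyceride synthesis, 1 of 24 of lipid droplets and lipolysis, 1 of 16 of fatty acid synthesis, and 0 of 19 of peroxisomal oxidation. Among the lipid genes besides these 8, only *Scd3*, a stearoyl-CoA desaturase, had a peak in more than 1 list. The peaks of *Scd3* were 2.43 kb to 18.3 kb wide, with −log10 q-values of 1.19 to 1.47, and lay in Vec replicate 1 and both Cre lists. The other 3, named after their values were seen, had a peak in 1 list each. A peak of 1024 bp covered the start of *Echs1*, the enoyl-CoA hydratase of β-oxidation, in Vec replicate 1 (fold 1.55). *Acot7* had one of 968 bp and *Mecr* one of 1277 bp, 5446 bases from the gene, both in Cre replicate 2. For the distance of 10 kb, *Slc27a1* (4.99 kb) and *Elovl5* (5.91 kb) lay closest to the limit among the 8 genes, and *Got2* (10.7 kb) and *Acadl* (13.4 kb) were the lipid genes just outside it.

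The labelled cell type was checked in the same way. None of 14 brown adipocyte markers, *Ucp1*, *Cidea* and *Prdm16* among them, and none of 12 general adipocyte markers, such as *Adipoq* and *Pparg*, had a peak within 10 kb in any of the 8 lists. Of 13 markers of preadipocytes and fibroblasts only *Ly6a* did, with peaks of 45.7 kb to 98.1 kb in the 4 H3K27ac lists that lay 4695 to 6681 bases from the gene. Markers of skeletal muscle (10 genes), macrophages (9) and endothelium (9) had none. Over all protein-coding genes the share was 8.65% for any H3K27ac list and 5.74% for any EBF2 list, with wide peaks counted in. Whether the marker sets differ from these shares was not tested, and the lists neither show nor deny the labelled cell type. The share of preadipocytes or other cells among the 2 groups was not tested. For *Ucp1* and *Cidec* the paper shows EBF2 Cut & Tag signal in Vec and Cre cells, and describes the binding as reduced without *Cars2*. No EBF2 list held a peak within 10 kb of *Ucp1*, so the lists do not show that binding. A list gives no coverage where it has no peak, and why the lists and the paper differ here was not tested.

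**Figure D5:**
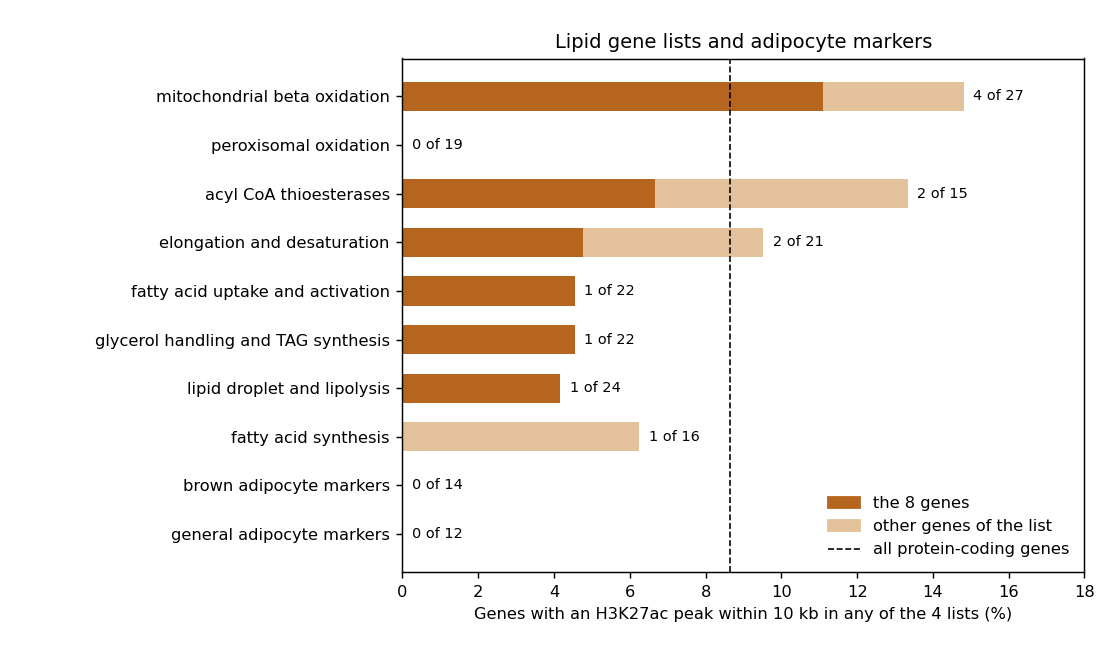
Bars give the percentage of genes in each list with an H3K27ac peak within 10 kb in any of the 4 H3K27ac lists, with the part made up of the 8 genes in dark colour, and the dashed line gives 8.65% for all protein-coding genes. The dark part follows from how the 8 genes were chosen. The count beside each bar is genes with a peak out of genes in the list, from 4 of 27 in mitochondrial β-oxidation to 0 of 14 and 0 of 12 in the adipocyte markers.

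Many other genes had the same pattern of presence over the 8 lists. *Hadha*, *Hadhb* and *Etfdh* shared theirs, Cre replicate 2 alone, with 267 other protein-coding genes each. *Elovl5* and *Gk*, found in Vec replicate 1 alone, shared theirs with 142, and *Slc27a1*, in Cre replicate 1 alone, with 32. The pattern of *Acot1* and *Plin2* was rarer, with 11 other genes each. Among genes of the same pattern that do not share a peak, the 2 with the closest mean score percentile were *Tbc1d31* and *Cast* for *Hadha* and *Hadhb* (73.8 and 73.6 against 74.1), *Arih1* and *Dlc1* for *Etfdh*, and *Aldh6a1* and *Bbof1* for *Gk*. For *Acot1* they were *Kat2b* and *Rev3l* (42.2 and 39.6 against 41.2), and for *Plin2* *Zswim2* and *Upb1* (23.4 and 34.1 against 25.2). For *Elovl5* they were *Eif3b* and *Xlr3a* (78.4 and 78.7 against 77.3), and for *Slc27a1* *9430038I01Rik* and *Abhd8* (23.8 each). The peak near *Xlr3a* was 171 kb wide, so a like pattern does not mean a like peak.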

How the data were processed

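The 8 libraries were used as labelled. The submitters' processing notes name bcl2fastq 2.17, Trimmomatic 0.33, HISAT2 2.2.1, MACS2 2.2.7 and mm10; the settings, control library and treatment of duplicate reads are not given in the sources used here. The authors deposited 1 peak list per library, broad for H3K27ac and narrow for EBF2, not pooled. The deposited score is 10 times the −log10 q-value as a whole number (to within 1 in 99.8% to 100% of the peaks of a list), the fold is a ratio to the caller's own background, and −log10 p-values and q-values were also made by the authors (in broad lists, means over the peak). Depth is unknown. Background coverage was the 10th percentile of the value that, as a Poisson mean, gives the deposited fold and p-value, over peaks with −log10 p-values under 15.

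Genes and promoter windows were from RefSeq (GRCm38.p6, 21887 nuclear protein-coding genes, all 8 genes and all 163 lipid genes matched). Coordinates are 1-based. A peak belonged to a gene if it overlapped it or lay within 10 kb. Peaks overlapping by 1 bp formed a region. The genes and lists were chosen with earlier results of these data known. The genes named were the 8, lipid genes with a peak in 2 or more lists, genes with the end nearest to a peak, and for each of the 8 the 2 genes most alike in presence and score percentile. Other genes (*Echs1*, *Acot7*, *Mecr*, *Got2*, *Acadl*, *Acot2* to *Acot4*, *Ly6a* and other markers) were named outside this rule, after values were seen. No test was run. The distance function was tested on simulated data. The tools were Python 3.11.15, matplotlib 3.10.9, scipy 1.17.1, pandas 2.3.3 and numpy 2.4.6.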

Additional observations from a re-analysis of the deposited data

How the results depend on the processing

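Of 76 values recomputed under other settings, 42 were 0 against a reported 0, among them the EBF2 counts, which a narrower window or a higher score can only leave at 0. Of the other 34, 23 stayed within 1.5 times the reported value. With windows of 1 kb or 3 kb the count of genes in Cre replicate 1 went from 1 to 0, because the peak near *Slc27a1* lies outside the gene. With only peaks at or above the median score of the antibody (27 for H3K27ac), 1 of the 8 genes was left in Vec replicate 1 (*Elovl5*), 1 in Vec replicate 2 (*Acot1*), 0 in Cre replicate 1 and 3 in Cre replicate 2 (*Hadha*, *Hadhb* and *Etfdh*). The share of all protein-coding genes is not given at this score or at the narrower windows, so nothing is read from these counts. Leaving out each H3K27ac library in turn gave 0 to 2 genes found in Vec only, 0 to 3 in Cre only and 0 to 2 in every remaining list, against 0, 0 and 0. The names depended on the library left out, as given with the counts. No paired analysis was possible because the values come from no test. Coverage below the threshold of the caller is not seen in the lists.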

Other observations

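H3K27ac peaks beyond 10 kb but within 50.2 kb were also present around a pair of the genes, *Elovl5* and *Slc27a1*. Other genes of the 8 had peaks farther off, such as *Hadha* at 383 kb in Vec replicate 1. A short H3K27ac peak lay 36.7 kb past the end of *Elovl5* in Vec replicate 1 (1097 bp, fold 1.54) and in Cre replicate 2 (1125 bp, fold 1.66). Both begin at 78021204 on chromosome 9, so this region, unlike the one upstream of *Elovl5*, was listed in both cell types.

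Around *Slc27a1*, Cre replicate 1 held 6 H3K27ac peaks in the gene or within 1 Mb of it, while each of the other 3 H3K27ac lists held 1. The peak near the gene had neighbours of 4.24 kb and 12.3 kb in the same list, 46.9 kb and 50.2 kb from the gene, with −log10 q-values of 1.54 and 1.36. Within 1 Mb of *Etfdh* and of *Gk*, the peak over the start was the only H3K27ac peak in the 4 lists.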
